A study of Homo sapiens with 6 samples.

Results

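The 10 genes HSPA5, HSP90B1, DNAJB9, PDIA4, PDIA6, SDF2L1, HERPUD1, CALR, XBP1 and HYOU1 make or regulate the folding machinery of the endoplasmic reticulum (ER). They were taken by gene name from a table of 20745 genes, and each of the 10 names occurred there once. RNA of AB 8/13 cells was sequenced. This conditionally immortalized human podocyte line divides at 33 °C, and moving it to 37 °C for 7 to 10 days stops division and lets the cells differentiate. Per the labels, 3 vehicle cultures and 3 cultures exposed to 1 µM levamisole, a drug that spares steroids in nephrotic syndrome, were all kept without serum for 24 hours. The study's methods instead give complete medium with serum for vehicle, which was not resolved here, and say that the 3 cultures of each group came from different passages.

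The ER folds secreted and membrane proteins with lumenal chaperones. When unfolded protein builds up, membrane sensors start the unfolded protein response (UPR), through which the transcription factors ATF6 and XBP1 raise the transcription of chaperone genes. Podocytes, which build the filtration barrier of the kidney, make large amounts of membrane and matrix protein and are known to depend on this system. ATF6 and XBP1 act with the factor NF-Y on the ER stress response element (ERSE), in which CCAAT is bound by NF-Y and CCACG by ATF6 or XBP1.

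The level of each gene is known as the base mean, the authors' mean of counts scaled by library size, and it is 1 value over all libraries. The difference between levamisole and vehicle was not analysed here for these genes, since the table gives it only as the authors' own result. The base mean carries no spread between cultures, and the depth per library is unknown, so neither an error nor a test stands beside the levels. The table does not name the libraries it averages. None of its 7409 genes with a base mean under 5 shared a value with another gene to 10 decimals, although averages of a few whole reads over 6 libraries would be likely to repeat. Whether the base mean covers only the 6 labelled cultures could therefore not be settled.

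An exact ERSE-type element was found in a promoter window of 8 of the 10 genes. Over all 27305 genes with a window in RefSeq (GRCh38.p14), 44 held one, which is 0.161%. Of the 9860 genes with a window and a base mean of at least 5, 30 held one, which is 0.304%. A window holds 250 bases before a transcription start and 50 after it. The 10 genes have 13 windows, because PDIA4, PDIA6 and XBP1 have a second start, and all 13 were identical in the hg38 reference genome. ERSE was searched on both strands as CCAAT and CCACG with 9 bases between them. ERSE-II was searched as ATTGG and CCACG with 1 base between them. Both motifs include the short site CCACG, which 42.1% of all genes hold in a window. ERSE was defined in promoters of this gene family, and ERSE-II is a related pattern with the same CCACG. The presence of either there is a description and not independent support.

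The elements are shown because they carry this pattern, each read 5′ to 3′ on the strand that carries CCACG, with the fixed bases in capitals and the bases between them in lower case. The first 6 are ERSE and the last 4 are ERSE-II.
HSPA5: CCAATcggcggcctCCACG
HSP90B1: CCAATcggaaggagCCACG
HSP90B1: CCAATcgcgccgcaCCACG
PDIA6: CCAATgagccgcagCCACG
CALR: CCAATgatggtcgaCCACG
XBP1: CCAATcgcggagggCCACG
HERPUD1: ATTGGgCCACG
SDF2L1: ATTGGtCCACG
HYOU1: ATTGGaCCACG
HYOU1: ATTGGaCCACG

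ERSE was present in HSPA5, HSP90B1, PDIA6, CALR and XBP1, which are 5 of the 25 genes that hold it among all genes with a window. ERSE-II was present in HERPUD1, SDF2L1 and HYOU1, which are 3 of 19 such genes. No member held an exact match to both. With up to 1 mismatch allowed, HERPUD1 held 2 matches in its window, and 1 of them was an ERSE whose last base was A instead of G. All 10 elements lay before the start, with their first base between 52 and 225 bases upstream and a median distance of 103 bases. The elements were 5 in the orientation of the gene and 5 in the opposite one. Of the 9 bases between CCAAT and CCACG of ERSE, 5 to 8 were G or C. The 41 different element positions over all windows include 10 in front of these genes.

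**Figure D1:**
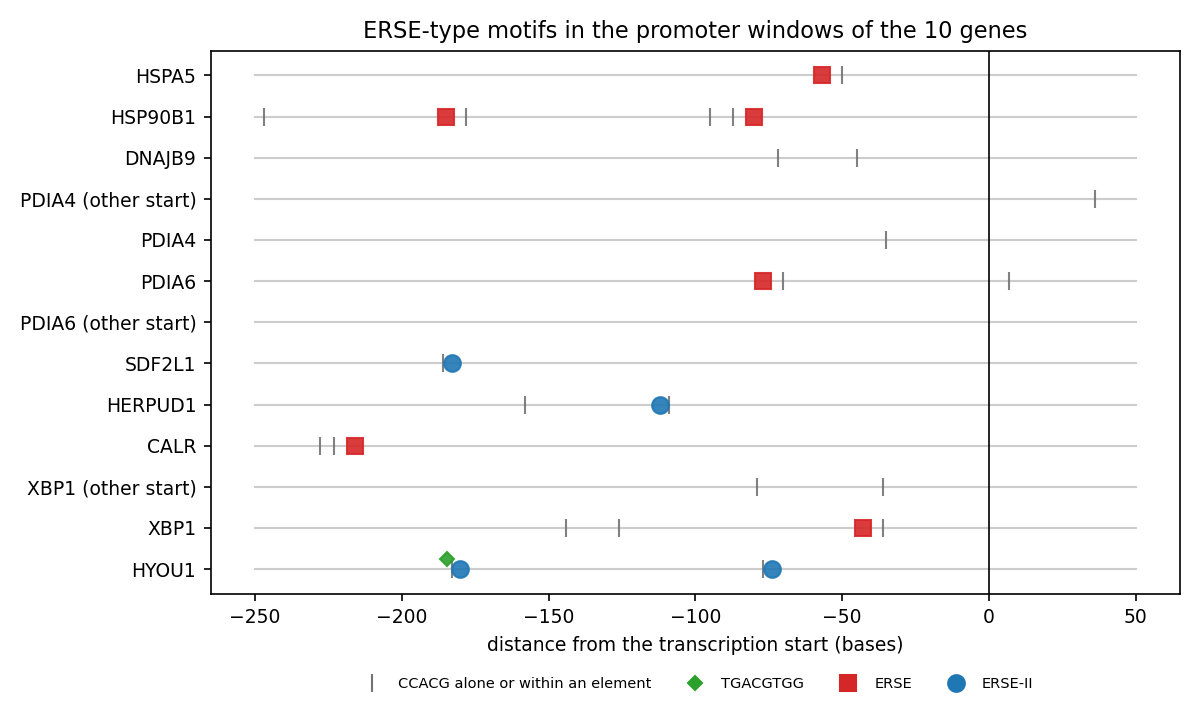
Positions of ERSE (red squares), ERSE-II (blue circles), TGACGTGG (green diamond) and CCACG (grey ticks) in the 13 promoter windows, plotted as the distance of each motif's centre from the transcription start in bases. The 8 windows with an element hold it before the start, and HSP90B1 and HYOU1 hold 2 each.

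HSPA5 encodes BiP, the HSP70 chaperone of the ER lumen that also holds the UPR sensors inactive. Its ERSE lay 66 bases before the start at chr9:125241391-125241409 on the minus strand. HSP90B1, which encodes the ER HSP90 chaperone GRP94, held 2 ERSE in opposite orientations, 194 and 89 bases before the start. HYOU1, an HSP110-type exchange factor for BiP, held 2 ERSE-II, 185 and 79 bases before the start. These 2 genes were the only ones among the 27305 with 2 or more exact elements in 1 window. With up to 1 mismatch, the window of HSPA5 held 2 matches, HSP90B1 4, HYOU1 3 and DNAJB9 0. Genes with 2 or more such looser matches were not counted over all genes. The upstream 250 bases of these genes are printed to show the arrangement, with those of DNAJB9, which held no element, for contrast. Capitals mark the exact elements on either strand. The stretches lie at chr9:125241344-125241593 (minus strand), chr12:103930160-103930409 (plus strand), chr11:119057206-119057455 (minus strand) and chr7:108569624-108569873 (plus strand) of GRCh38.p14.
HSPA5: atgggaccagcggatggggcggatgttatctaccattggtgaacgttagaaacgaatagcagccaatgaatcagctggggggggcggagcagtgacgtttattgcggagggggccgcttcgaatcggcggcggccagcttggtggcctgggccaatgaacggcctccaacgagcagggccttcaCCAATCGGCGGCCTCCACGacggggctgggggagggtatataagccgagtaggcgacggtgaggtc
HSP90B1: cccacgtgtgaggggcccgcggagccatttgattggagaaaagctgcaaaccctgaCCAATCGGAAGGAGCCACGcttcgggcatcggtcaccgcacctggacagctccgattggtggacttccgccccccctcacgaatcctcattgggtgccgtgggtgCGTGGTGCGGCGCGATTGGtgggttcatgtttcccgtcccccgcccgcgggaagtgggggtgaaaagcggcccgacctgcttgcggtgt
HYOU1: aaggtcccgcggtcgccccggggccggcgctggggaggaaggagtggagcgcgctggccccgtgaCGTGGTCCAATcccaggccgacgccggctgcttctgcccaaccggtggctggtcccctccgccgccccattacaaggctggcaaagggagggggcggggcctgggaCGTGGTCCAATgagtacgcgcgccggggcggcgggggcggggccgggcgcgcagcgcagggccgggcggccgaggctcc
DNAJB9: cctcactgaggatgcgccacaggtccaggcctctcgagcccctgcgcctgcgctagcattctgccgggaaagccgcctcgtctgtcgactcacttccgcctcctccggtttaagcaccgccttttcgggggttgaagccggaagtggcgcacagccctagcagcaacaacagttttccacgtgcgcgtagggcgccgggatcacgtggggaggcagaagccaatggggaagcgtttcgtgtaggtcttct

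PDIA6, a protein disulfide isomerase, held its ERSE at chr2:10812853-10812871, before the start of its representative transcript. The second start of PDIA6, 19700 bases upstream, had no element and no CCACG. CALR encodes calreticulin, the lumenal lectin chaperone, and its ERSE was the farthest from the start at 225 bases (chr19:12938384-12938402). XBP1, itself a UPR transcription factor, held the nearest one at 52 bases (chr22:28800603-28800621). The other XBP1 start, 492 bases downstream, had CCACG at 81 and 38 bases before it and no element.

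HERPUD1 encodes a membrane protein of ER-associated degradation, in which misfolded proteins are returned to the cytosol. Its ERSE-II lay 117 bases before the start at chr16:56932025-56932035. SDF2L1, a lumenal cofactor of BiP, held ERSE-II 188 bases before the start at chr22:21642114-21642124. In SDF2L1 and HYOU1 the element ran opposite to the gene, and in HERPUD1 along it.

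DNAJB9, a J-domain cochaperone of BiP, and PDIA4, a protein disulfide isomerase, held no exact element and none with 1 mismatch. Both had CCACG in their windows, 74 and 47 bases before the start in DNAJB9 and 37 bases before the upstream one of the 2 PDIA4 starts. The UPR element core was searched on both strands as TGACGTGG and TGACGTGA. TGACGTGG was found in HYOU1 alone, 188 bases before the start and overlapping its distal ERSE-II, against 0.927% of all genes. TGACGTGA was found in 0 of the 10 genes and 0.52% of all genes. An absent match says only that these letters were not in the window.

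The windows of the 10 genes were rich in G and C, with a median of 68.7% and a range from 48.7% to 78%, beside a median of 58.7% over all 35116 windows. The lowest value was that of the second PDIA4 start. CpG was counted 28 times in the median window of the 10 genes and 14 times in that of all windows.

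The search was repeated in other ER gene lists. Among the other ER folding factors it was found in 3 of 16 genes with a window, CANX, CRELD2 and ERO1B. CANX encodes calnexin, the membrane-bound counterpart of calreticulin, and its ERSE at chr5:179698778-179698796 was in the windows of 3 starts. ERO1B encodes an oxidase that recharges the disulfide isomerases. The element was found in 0 of 6 UPR sensors and their processing proteases, 0 of 9 UPR transcription factors and effectors, 0 of 11 degradation genes, 0 of 10 translocon genes and 0 of 11 HSP70, HSP90 and J-domain counterparts in other compartments. These differences between lists were not tested. ERSE was defined in promoters of the gene family of the 10, so the contrast is a description and not independent support.

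**Figure D2:**
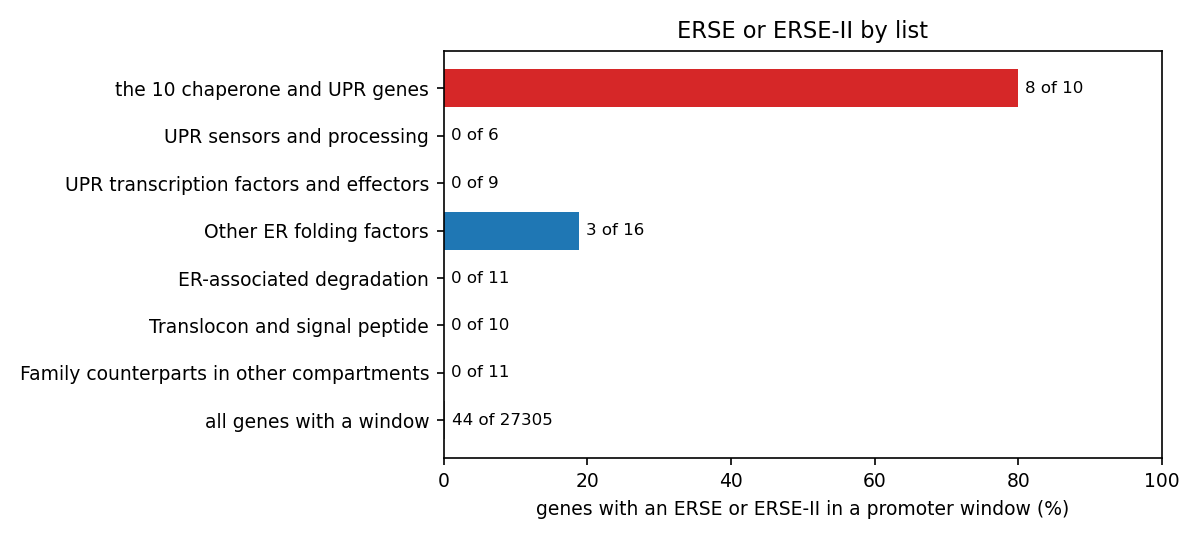
Percent of genes with an exact ERSE or ERSE-II in a promoter window (x axis) for the 10 genes, 6 other lists and all genes with a window, with counts beside the bars. The 10 genes stand at 80%, the other ER folding factors at 18.8%, and the other 5 lists at 0. ERSE was defined in promoters of the gene family of the 10, so the contrast is a description only.

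All 10 genes were detected with a base mean of at least 5, and 9 of them lay above the median of 21.8 over all genes. The median gene of the 10 had a higher base mean than 87.8% of the table. SDF2L1 was the exception, with a base mean of 11.7, higher than 43.7% of the table. The other 9 were each higher than at least 82.6% of it. Together the 10 genes made up 0.0678% of the summed base means, of which 34.8% belonged to 22 mitochondrial genes.

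**Figure D3:**
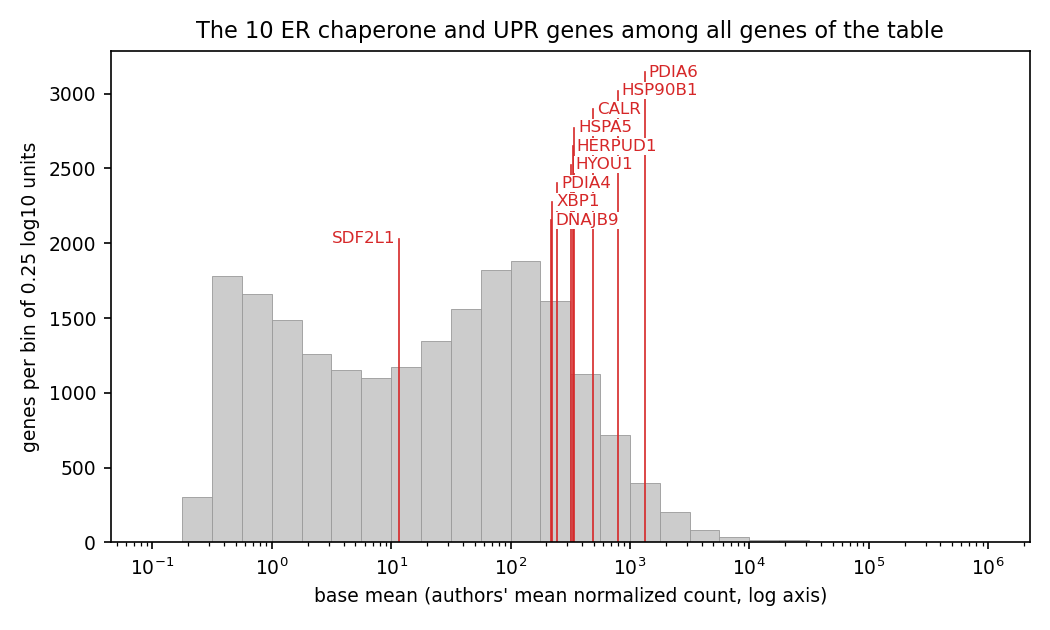
Histogram of the base mean of all 20745 genes (x axis, log scale, authors' mean normalized count; y axis, genes per bin) with the 10 genes as red lines, whose heights only separate the names. The lines of 9 genes lie between 219 and 1326 and that of SDF2L1 at 11.7.

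CEL-seq reads come from the 3′ end of a transcript, so a gene's count is not expected to grow with its length. Levels are compared between genes per kilobase of coding length, and the base mean as deposited is given for each of the 10 genes. Dividing such counts by coding length raises genes with short coding sequences relative to others. Folds per kilobase therefore hold on that scale only. The 3′ ends of the 10 genes were checked over their last 500 exonic bases, and no exon of a different gene in the same orientation overlapped them (GENCODE 44).

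Among the HSP70, HSP90 and HSP110 chaperones, HSP90B1 (ENSG00000166598, chromosome 12, 103930107 to 103953931) had a base mean of 788, or 327 per kilobase of coding length. HSPA5 (ENSG00000044574, chromosome 9, 125234853 to 125241382) had a base mean of 342, or 174 per kilobase. HYOU1 (ENSG00000149428, chromosome 11, 119044188 to 119057227) had a base mean of 321, or 107 per kilobase. Per kilobase HSP90B1 was thus 1.88-fold above HSPA5, and HSPA5 was 1.63-fold above its exchange factor HYOU1.

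The BiP cofactors lay far apart. DNAJB9 (ENSG00000128590, chromosome 7, 108569867 to 108574850) had a base mean of 219, or 327 per kilobase of its short coding sequence. SDF2L1 (ENSG00000128228, chromosome 22, 21642302 to 21644299) had a base mean of 11.7, or 17.6 per kilobase. Per kilobase of coding length HSPA5 stood 9.88-fold above SDF2L1, and its base mean as deposited was 342 against 11.7. Between DNAJB9 and HSPA5 the direction depended on the scale, since DNAJB9 was 1.88-fold above HSPA5 per kilobase of coding length, at 90.9 against 87.2 per kilobase of transcript, and below it as deposited, at 219 against 342.

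The disulfide isomerases PDIA6 and PDIA4 catalyse disulfide bond formation in client proteins. PDIA6 (ENSG00000143870, chromosome 2, 10783391 to 10837977) had the highest level of the 10 on both scales, with a base mean of 1326, or 1004 per kilobase. It took 30.8% of the summed base means of the 10 genes. PDIA4 (ENSG00000155660, chromosome 7, 149003062 to 149028662) had a base mean of 246, or 127 per kilobase, so PDIA6 was 7.89-fold higher per kilobase.

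The lectin chaperone gene CALR (ENSG00000179218, chromosome 19, 12938578 to 12944489) had a base mean of 494, or 395 per kilobase. HERPUD1 (ENSG00000051108, chromosome 16, 56932142 to 56944864) had a base mean of 331, or 282 per kilobase. XBP1 (ENSG00000100219, chromosome 22, 28794555 to 28800597) had a base mean of 223, or 198 per kilobase. Its mRNA becomes the active form through splicing by the sensor IRE1, and the gene count holds both forms together.

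The order per kilobase of coding length ran from PDIA6 over CALR, DNAJB9, HSP90B1, HERPUD1, XBP1, HSPA5, PDIA4 and HYOU1 to SDF2L1. PDIA6 was 2.54-fold above CALR, and HYOU1 was 6.07-fold above SDF2L1. The 8 genes between PDIA6 and SDF2L1 fell within 3.68-fold of each other. DNAJB9 and HSP90B1 were at 327 each per kilobase, while as deposited their base means were 219 and 788. With no spread between cultures, none of the neighbours can be said to differ. The order as deposited kept PDIA6, HERPUD1 and SDF2L1 in place and moved DNAJB9 from place 3 to place 9.

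**Figure D4:**
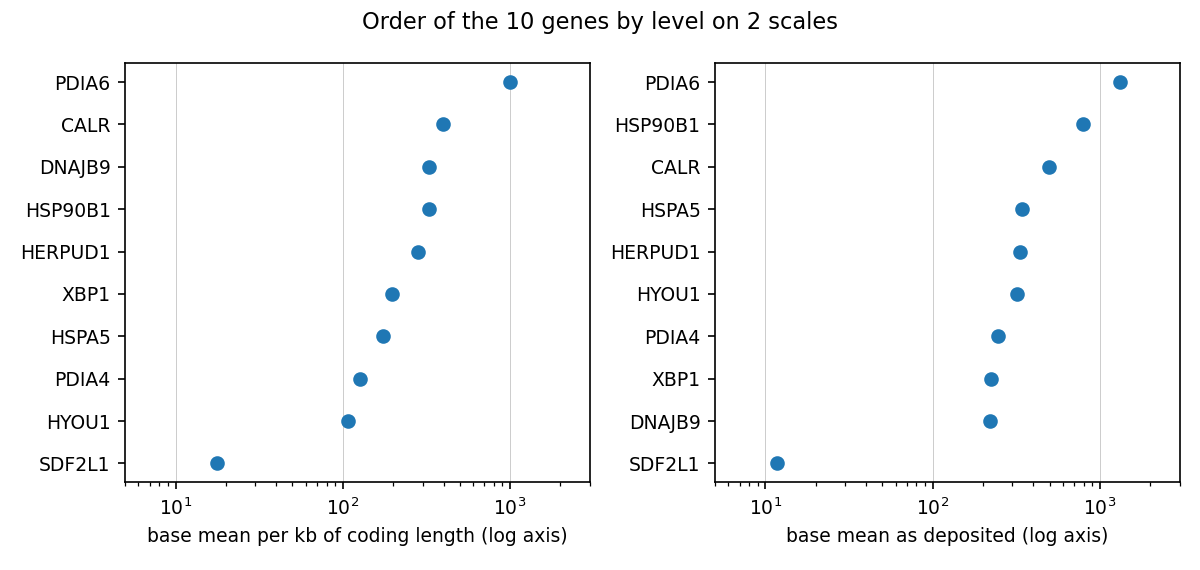
The 10 genes ordered by base mean per kilobase of coding length (left) and by base mean as deposited (right), both on log axes, 1 point for each gene. PDIA6 is highest and SDF2L1 lowest in both panels, while DNAJB9 moves from place 3 on the left to place 9 on the right.

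The members with an ERSE-type element did not share 1 level. Their base means ran from 11.7 for SDF2L1 to 1326 for PDIA6, with a median of 336, while DNAJB9 and PDIA4, without an element, were at 219 and 246. HYOU1 and HSP90B1, with 2 elements each, were at 107 and 327 per kilobase.

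The ER counterparts were set beside family members in other compartments. HSPA8, the main cytosolic HSP70, had a level per kilobase 6.93-fold that of HSPA5, and HSPA9, the mitochondrial one, had 0.967 times that of HSPA5, while as deposited their base means were 343 and 342. HSP90AB1, a cytosolic HSP90, had 11.3-fold and HSP90AA1 3.65-fold the level of HSP90B1 per kilobase. HSP90B1 in turn was 6.09-fold above TRAP1, the mitochondrial HSP90, per kilobase, with base means of 788 and 113 as deposited. The cytosolic HSP110 gene HSPH1 was 3.12-fold above HYOU1 per kilobase. As deposited, the base means were 2342 for HSPA8, 2622 for HSP90AA1 and 859 for HSPH1. Of the 11 counterparts listed, all were detected, with HSP90AB1 highest at a base mean of 8017 and TRAP1 lowest at 113. HSPA1A and HSPA1B are near-identical copies, so their split of reads is uncertain.

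All 17 other ER folding factors in the table were detected, with a median of 209 per kilobase beside 240 for the 10 genes. As deposited, the medians were 262 and 326. TXNDC5 was not in the table used here. P4HB, the founding disulfide isomerase and collagen hydroxylase subunit, was highest with a base mean of 1868, and FKBP10, a collagen prolyl isomerase, was lowest with 16.3. P4HB, at 1226 per kilobase, was the only one of them above PDIA6 on that scale. As deposited CANX, with a base mean of 1690, was above PDIA6 too. PDIA3, the isomerase that works with calreticulin, had a base mean of 162, and PDIA6 exceeded it 9.36-fold per kilobase. CANX was 2.41-fold above CALR per kilobase, with base means of 1690 and 494 as deposited.

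The 6 UPR sensors and processing proteases had a median of 42.4 per kilobase and a median base mean of 76.4. ATF6, the sensor that is cut to become a transcription factor, was highest with a base mean of 294, and its relative ATF6B lowest with 17.1. Exons of TNXB on the same strand cover 71 of the last 500 exonic bases of ATF6B, so its count is uncertain. The other sensors ERN1 (IRE1) and EIF2AK3 (PERK) were at 15.0 and 11.5 per kilobase, below each of the 10 genes on that scale. As deposited their base means of 43.96 and 38.6 were above that of SDF2L1, at 11.7, and below those of the other 9.

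The 9 UPR transcription factors and effectors had a median of 84.0 per kilobase and a median base mean of 88.7. PPP1R15A, a phosphatase subunit that ends the translation block, was highest with a base mean of 509, and DDIT3, the stress factor CHOP, was lowest with 33.5. XBP1 was at 198 per kilobase and ATF4 at 84.0.

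The 14 degradation genes had a median of 139 per kilobase and a median base mean of 222. EDEM3, a mannosidase that marks glycoproteins, was highest at a base mean of 1261 and DERL3 lowest at 17.7. HERPUD1 was 3.00-fold above its relative HERPUD2 per kilobase, with base means of 331 and 114 as deposited. The 10 translocon genes, which bring new chains into the ER, had a median of 1005 per kilobase and a median base mean of 705. SEC61B was highest at a base mean of 2394 and SRPRB lowest at 135.

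**Figure D5:**
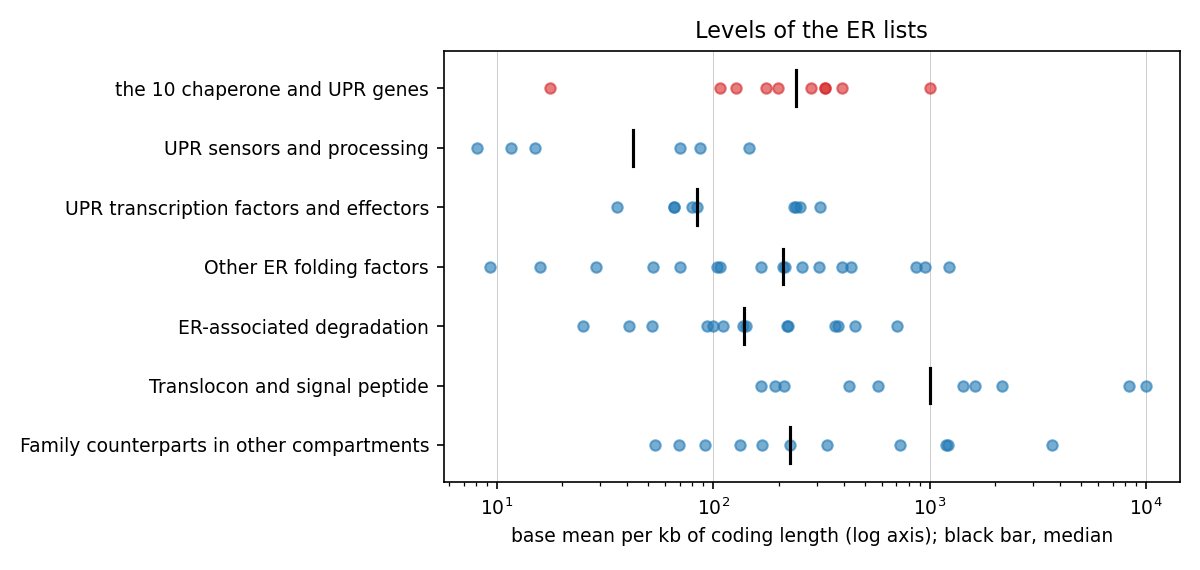
Base mean per kilobase of coding length (log axis) of each gene of the 10 (red) and of 6 other lists (blue), with the list median as a black bar. The median of the 10 genes is 240, beside 42.4 for the UPR sensors and 1005 for the translocon genes. As deposited, which is not plotted, these medians are 326, 76.4 and 705.

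The labelled cell type was checked with marker genes. NPHS1 and LMX1B, which mark podocytes, were not in the table used here. Of the podocyte markers in it, PTPRO had a base mean of 0.333, WT1 6.21, TCF21 7.20, PODXL 15.3 and SYNPO 22.8. CD2AP, ACTN4 and VIM, which many adherent cells express, had base means of 929, 14321 and 19062. The more specific podocyte markers named here were thus low or not in the table, while the 10 ER genes, which most cell types express, do not mark a cell type. The 3 endothelial, 1 tubule and 3 leukocyte markers in the table each had a base mean under 5. Of 3 mesangial and fibroblast markers in it, ACTA2 had a base mean of 1021, PDGFRB 4.14 and GATA3 1.54.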

How the data were processed

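RNA of 3 vehicle and 3 levamisole cultures was sequenced from the 3′ end by a modified CEL-seq method. Per the labels, the submitters' processing notes and the methods, the authors trimmed reads with Trim Galore 0.4.5, mapped them to GRCh38 with STAR 2.7.5a, counted genes with HTSeq 0.11.0 and compared the groups with DESeq2 1.22.0. The base mean deposited by the authors is a signal, the mean of counts divided by size factors, with 1 value for each gene. The 5 columns that remain hold the authors' comparison (log2 fold change, its standard error, test statistic, p-value and adjusted p-value) and were not used. With 0 columns of values per culture, edgeR, DESeq2 and any other test of levamisole were not run.

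Places, shares and levels per kilobase of coding length (GENCODE 44, representative transcript) were computed with Python 3.11.15, pandas 2.3.3 and NumPy 2.4.6. Identifiers matched for 20599 of 20745 genes. Motifs were searched in RefSeq windows of GRCh38.p14 and the search was checked on planted motifs. The genes named are the 10 members and, of each list, the highest and lowest gene by base mean; counterparts, sensors, markers and genes with an element were named beyond that rule after their values were seen. The members and lists were chosen with earlier results of these data known. C-terminal retrieval signals were not analysed here, and some of the cell type markers are not reported here.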

Additional observations from a re-analysis of the deposited data

How the results depend on the processing

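No paired analysis was possible because the table holds 1 mean for each gene and no value per culture; for the same reason left-out replicates, other normalizations and other tools were not run. The median member lay above 87.8% of all genes, above 81.0% of those at 5 or more and above 69.4% of those at 50 or more. The share of the summed base means was 0.0678% over all genes, 0.0679% over those at 5 or more and 0.104% without mitochondrial genes. The highest member stood 56.9-fold above the lowest per kilobase of coding length, 41.0-fold per kilobase of transcript and 113-fold as deposited. The 10 detected members became 9 at a minimum of 50, without SDF2L1. The 8 genes with an ERSE-type element were 8 with up to 1 mismatch, in the bases before the start alone, and, chosen after seeing the data, in the window nearest the representative start. Over all genes the share with an element rose from 0.161% to 3.26% with 1 mismatch and was 0.157% before the start. Of the values for single genes and lists, 24 kept their place or, for counts, stayed within 1.5-fold, and 38 moved. The 38 include each member's percent of genes with a lower base mean, where any change after rounding counted as moved. That percent falls when genes with low base means are left out, so the moves of that percent say little about robustness. The other moves were changes in a member's place in the order of levels between scales, and in how many genes of a list were detected. The changes of place affected CALR, DNAJB9, HSP90B1, XBP1, HSPA5, PDIA4 and HYOU1, so the order of these genes depends on the scale.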

Other observations

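SYNPO, which encodes the podocyte actin regulator synaptopodin, held an exact ERSE 79 bases before its start at chr5:150640581-150640599 and had a base mean of 22.8. It was the only one of 9 podocyte markers with a promoter window that did, and it was singled out after the values were seen.

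Beyond the 10 genes, 23 genes of the table held an ERSE or ERSE-II in a promoter window. Their median base mean was 106, beside 62.4 for the genes with a window and no element and 336 for the 8 members with one. The 23 genes are few, and the difference in level was not tested.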
